A study of Rattus norvegicus with 53 samples.

Results

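Il6, Tnf, Csf1, Lif, Nos2, Cxcl1 and Cxcl2 are inflammatory genes, and this account follows them through rat blood mononuclear cells cultured with serum or plasma. All probe sets annotated to 1 of these 7 genes alone were taken, which gave 11 of the 31042 probe sets tested and 7 of the 14217 genes with a symbol. Tnf had 2 probe sets, called A (1387691_at) and B (1391384_at), and Csf1 had 4, called A (1380582_at), B (1380583_s_at), C (1369354_at) and D (1379631_at). Il6 (1369191_at), Lif (1368804_at), Nos2 (1371289_at), Cxcl1 (1387316_at) and Cxcl2 (1368760_at) had 1 each. A further probe set shared by Nos2 and its pseudogene Nos2-ps1 was left out, and its level ran between 3.56 and 4.42 on the log2 scale over the 53 arrays.

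The cells came from healthy Brown Norway (BN) rats of 180 days and were cultured for 6 h with 20% serum or plasma, which the labels use as names for the same material. BN is an inbred strain, and the BioBreeding (BB) sera came from DRlyp/lyp rats, which develop autoimmune diabetes spontaneously, and from their DR+/+ relatives, which as a rule do not. Rats with high blood glucose had been left out by the submitters. Arrays were hybridised for d40 DRlyp/lyp serum of rats given human recombinant IL-1 receptor antagonist (IL-1RA) by intraperitoneal injection at 350 ug/kg/day for 10 days, starting at day 30 (6 arrays). Its control was d40 DRlyp/lyp serum of rats given saline, labelled PBS (6). The other groups were d60 DRlyp/lyp serum with IL-1RA added to the culture (4), d60 DRlyp/lyp serum (4), d60 DR+/+ serum (4), autologous BN serum with IL-1B added (4), allogeneic BN serum (15) and autologous BN serum (10). No concentration of added IL-1B or IL-1RA was given in the labels. For the d40 IL-1RA group the sample labels speak of serum supplemented with IL-1RA and the design speaks of treated rats, and the design was followed. BB donors were 40 or 60 days old and BN serum donors 180 days, so strain and age of the serum donor cannot be told apart in any comparison of BB with BN serum. The readout is the response of BN cells to a serum and not the expression in the BB rats' own cells.

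The arrays fell into 2 array sets by their values. The clustering placed all 12 d40 arrays, autologous replicates 1 to 6 and allogeneic replicates 1 to 3 in array set 1 (21 arrays), and all d60 and IL-1B arrays, autologous replicates 7 to 10 and allogeneic replicates 4 to 15 in array set 2 (32 arrays). The labels describe no such sets, so sera were compared within a set, and d40 and d60 sera, which share no set, were not compared. Values are log2 expression, so a difference of 1 is a factor of 2. A group mean at or under 5.58 was called near background. That limit is the 90th percentile of 43 genes restricted to tissues other than blood, and the median of all probe sets was 5.46. The T cell marker list averaged 8.11 to 9.60 in every array, well above the limit. The 8 monocyte markers averaged 6.12 to 8.12, and 1 to 3 of them were at or under the limit in each group. Of 7 measured neutrophil markers, 4 or 5 were at or under it. In these bulk cultures fewer cells of a type and less RNA per cell cannot be told apart. Whether the replicates of a group are separate animals is not in the labels, so the p-values measure the spread between these arrays, which may be technical.

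All 7 genes belong to the early answer of white blood cells to interleukin-1 (IL-1), tumour necrosis factor and microbial products, and the transcription factor NF-kappaB is a known activator of most of them. Il6, Tnf, Lif and Csf1 encode secreted cytokines. Il6 and Lif signal through the shared receptor subunit gp130, Tnf is the central early mediator of inflammation, and Csf1 keeps monocytes and macrophages alive through its receptor Csf1r. Cxcl1 and Cxcl2 are chemokines that draw neutrophils through Cxcr2. Nos2 encodes the inducible nitric oxide synthase, which makes nitric oxide from arginine. In type 1 diabetes, IL-1 has long been studied as a mediator of beta cell damage.

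Promoters of 4 of the 7 genes could be read from RefSeq (build GRCr8). They are shown because both chemokines and Il6 carry the NF-kappaB consensus close to the gene's start while Tnf has no match in this window. Each line holds the 150 bases before the start, 5′ to 3′ on the gene's strand, with bases that match the consensus in capitals. The search covered both strands. The Cxcl2 window lies at chr14:17467256-17467405 on the minus strand and the Cxcl1 window at chr14:17479322-17479471 on the minus strand, so the 2 genes lie near each other. The Il6 window lies at chr4:5894576-5894725 on the minus strand.
Cxcl2: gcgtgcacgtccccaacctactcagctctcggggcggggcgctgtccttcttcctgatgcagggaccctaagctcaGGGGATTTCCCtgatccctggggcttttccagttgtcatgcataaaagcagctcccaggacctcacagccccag
Cxcl1: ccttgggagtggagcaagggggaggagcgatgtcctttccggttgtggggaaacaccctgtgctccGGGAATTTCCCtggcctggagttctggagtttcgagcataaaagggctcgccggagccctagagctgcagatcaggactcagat
Il6: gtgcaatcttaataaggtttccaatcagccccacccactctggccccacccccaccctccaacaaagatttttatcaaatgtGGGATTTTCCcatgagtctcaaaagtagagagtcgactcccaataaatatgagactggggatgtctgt
The capitals stand 74 to 64 bases before the start in Cxcl2 (3 overlapping matches over both strands), 84 to 74 bases before it in Cxcl1 (2 overlapping matches) and 68 to 59 bases before it in Il6 (1 match). Of 33469 rat promoters of 300 bases, 1400 (4.183%) held a match. The Tnf window held 0 matches. A match is a description of the letters and not a measured binding site.

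Of the 7 genes, 3 were clearly above background and 3 were not. Cxcl2 had the widest range of the 11 probe sets, 4.80 to 10.54 over the 53 arrays, and its mean was above the background limit in all 10 groups, counting the array sets apart. Csf1 A ran between 7.73 and 10.19 and Nos2 between 6.51 and 8.37, both above the limit in all 10 groups. Csf1 B and C were also above it everywhere. The left-out probe set shared by Nos2 and Nos2-ps1 was under the limit in every array (3.56 to 4.42), so Nos2 rests on 1 probe set here. Il6 (2.83 to 3.91), Lif (3.21 to 5.00), Cxcl1 (3.31 to 5.48) and Csf1 D (3.61 to 4.75) were near background in all 10 groups. Tnf A was near background in 2 groups, both of d40 serum, and Tnf B in 4, all in array set 1. Since RMA values compress differences near background, differences of Il6, Lif and Cxcl1 may be understated.

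**Figure D1:**
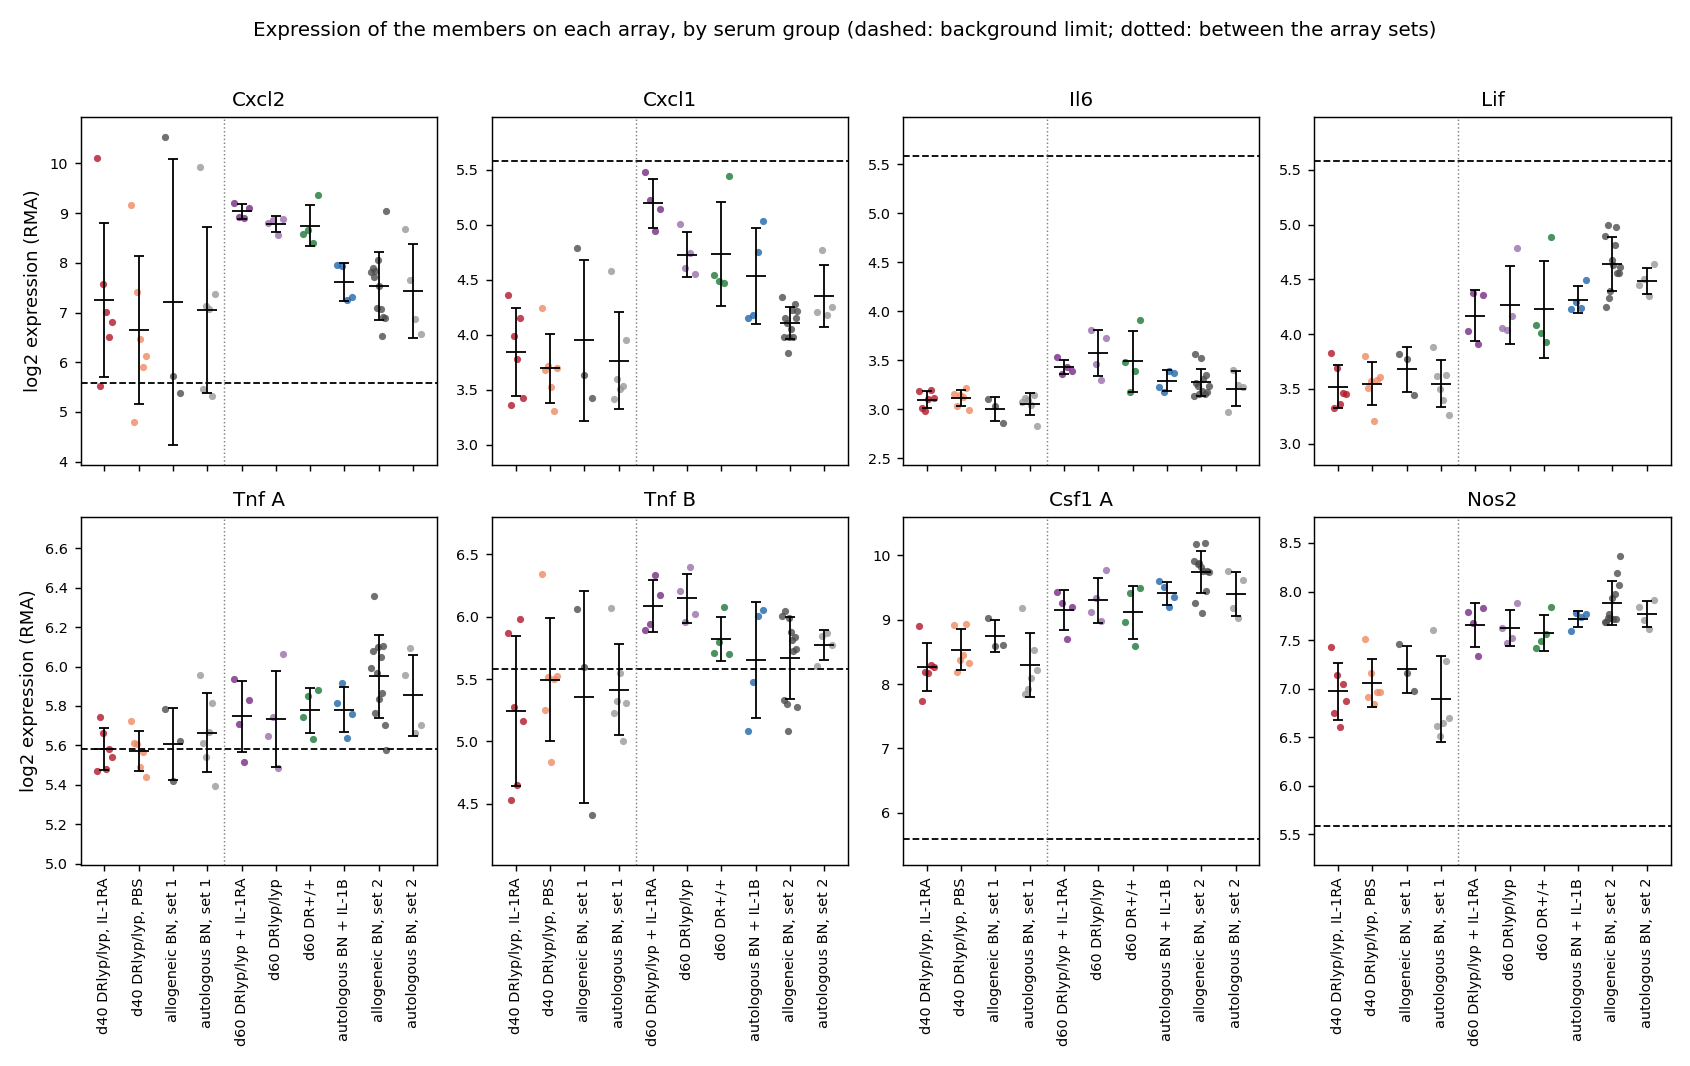
Log2 expression on each array by serum group for the 7 genes, with both Tnf probe sets and Csf1 A for Csf1; points are arrays and bars are group means ± SD. Groups of array set 1 stand left of the dotted line and those of array set 2 right of it, the dashed line marks the background limit of 5.58, and Il6, Lif and Cxcl1 lie under it in every group.

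Both neutrophil-attracting chemokines measured higher with the d60 BB sera than with allogeneic BN serum. Cxcl1 passed the test in the fit of all arrays with all 3 sera, and Cxcl2 only in a fit of array set 2 alone. Cxcl2 measured 9.21, 8.91, 8.90 and 9.11 with d60 DRlyp/lyp serum plus IL-1RA, 8.80, 8.87, 8.55 and 8.89 with d60 DRlyp/lyp serum and 8.59, 8.65, 8.40 and 9.36 with d60 DR+/+ serum. With allogeneic BN serum in the same array set it had a lowest value of 6.52, a median of 7.62 and a highest value of 9.04 (12 arrays). With autologous BN serum it measured 8.68, 7.65, 6.87 and 6.56. Thus 11 of 12 allogeneic arrays lay below every d60 array, and allogeneic replicate 15 (9.04) and autologous replicate 7 (8.68) reached into the d60 range.

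In the order of group means for Cxcl2 within array set 2, d60 DRlyp/lyp plus IL-1RA came first (9.03 ± 0.152, SD, n = 4), followed by d60 DRlyp/lyp (8.78 ± 0.156) and d60 DR+/+ (8.75 ± 0.42). The arrays of d60 DRlyp/lyp with and without IL-1RA did not overlap, and those of d60 DRlyp/lyp and d60 DR+/+ did. The gap to the next group, autologous serum plus IL-1B (7.62 ± 0.387, n = 4), was 1.13, and these arrays did not overlap. From there on neighbours overlapped, through allogeneic serum (7.53 ± 0.681, n = 12) and autologous serum (7.44 ± 0.944, n = 4). Array set 1 is ordered apart, since the sets are not compared. There d40 IL-1RA (7.26 ± 1.55, n = 6) came first, then allogeneic (7.22 ± 2.88, n = 3) and autologous serum (7.05 ± 1.67, n = 6). Last was d40 PBS (6.65 ± 1.49, n = 6), and each group overlapped its neighbour.

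Against allogeneic BN serum of array set 2, Cxcl2 differed by 1.25 with d60 DRlyp/lyp serum, by 1.22 with d60 DR+/+ serum and by 1.50 with d60 DRlyp/lyp serum plus IL-1RA. In the fit of all 53 arrays these differences had an SE of 0.648 and adjusted p-values of 0.150, 0.151 and 0.0882 (limma), so none was called. That SE is shared with array set 1, where Cxcl2 varied far more between replicates. A fit of the 32 arrays of array set 2 alone, added after the data were seen, had an SE of 0.313 and called Cxcl2 in each of the 3 comparisons, with adjusted p-values of 0.0110, 0.00936 and 0.0106 (limma). When each array was left out in turn from that fit, Cxcl2 was called in 15, 16 and 14 of 16 fits, in the same order. The d60 DRlyp/lyp call was lost without its replicate 1 (adjusted p = 0.0651), and the call with IL-1RA added without its replicate 2 (0.0563) or 3.

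Cxcl1 was near background throughout, and its d60 arrays and its allogeneic arrays did not overlap. It measured 5.48, 5.23, 4.94 and 5.15 with d60 DRlyp/lyp serum plus IL-1RA, 5.01, 4.61, 4.75 and 4.56 with d60 DRlyp/lyp serum and 4.55, 4.49, 4.47 and 5.44 with d60 DR+/+ serum. The 12 allogeneic arrays had a lowest value of 3.83, a median of 4.13 and a highest value of 4.34, so all 12 d60 arrays were above all of them. For this and the other gaps between groups, the share of all probe sets that also did not overlap is not given here. None can therefore be read as particular to a member. The difference was 1.09 with IL-1RA (SE 0.193, adjusted p = 0.00101, limma), 0.62 with d60 DRlyp/lyp serum (adjusted p = 0.0196) and 0.63 with d60 DR+/+ serum (adjusted p = 0.0157). The last 2 calls rested on few arrays. The d60 DRlyp/lyp call was lost without its replicate 1 (adjusted p = 0.113) or its replicate 3 (0.0657), and the d60 DR+/+ call without its replicate 4 (difference 0.39, adjusted p = 0.122). The call with IL-1RA stood in 16 of 16 such fits. In the fit of array set 2 alone all 3 were called, in 16 (IL-1RA), 15 (d60 DRlyp/lyp) and 16 (d60 DR+/+) of 16 fits that left out 1 array, and the d60 DRlyp/lyp call was lost without its replicate 1 (adjusted p = 0.0848, limma).

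Across the 11 member probe sets, the fit of all arrays called 4 in d60 DRlyp/lyp minus allogeneic serum, where 21.5% of all probe sets were called. It called 3 in d60 DR+/+ minus allogeneic serum (25.5% of all) and 3 in d60 DRlyp/lyp plus IL-1RA minus allogeneic serum (18.1% of all). The fit of array set 2 alone called 4 members in each of the 3 comparisons, beside 16%, 19.6% and 10.7% of all probe sets in the same order. For d60 DRlyp/lyp serum these were Cxcl1, Cxcl2, Il6 and Tnf B, 4 higher and 0 lower, so Cxcl2 and Tnf B were called there in place of Lif and Csf1 B. For each of the other sera they were Cxcl1 and Cxcl2 (higher) with Lif and Csf1 A (lower). The members called in the fit of all arrays were Cxcl1 and Il6 (higher) with Lif and Csf1 B (lower) for d60 DRlyp/lyp serum, and Cxcl1 (higher) with Lif and Csf1 A (lower) for each of the other sera. These background shares of 11 probe sets come to 1 to 3, against 3 or 4 members called, so the counts say nothing particular to the members. The median member difference was -0.22, -0.17 and -0.20, against -0.05, -0.05 and -0.04 over all probe sets. Leaving out 1 array at a time from the fit of all arrays gave 0 to 6, 1 to 4 and 1 to 4 members, with 0 called without replicate 1 of d60 DRlyp/lyp. The 3 comparisons share the 12 allogeneic arrays, so their results are not separate evidence.

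**Figure D2:**
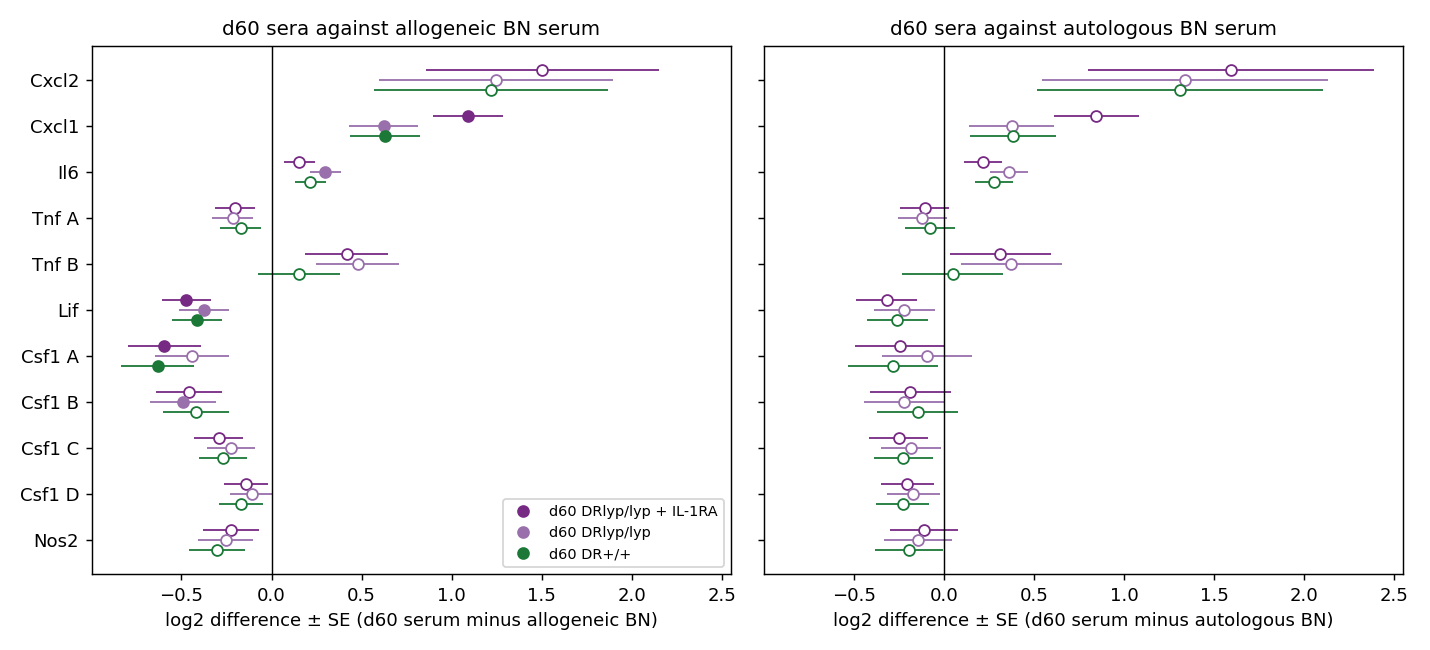
Log2 differences ± SE of the 11 member probe sets, from the fit of all arrays, between each d60 serum and allogeneic BN serum (left) or autologous BN serum (right) of array set 2. Filled points were called at an adjusted p under 0.05 and open points were not; Cxcl1, Cxcl2 and Il6 lie right of 0 and Lif and Csf1 left of it in both panels, and all points of the right panel are open.

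Monocyte markers moved with the chemokines in these comparisons. Cd14, the monocyte co-receptor for bacterial lipopolysaccharide, was higher than with allogeneic serum by 1.97 with d60 DRlyp/lyp serum, 1.93 with d60 DR+/+ serum and 2.09 with IL-1RA added. Mpeg1, a pore-forming protein of macrophages, was higher by 1.56, 2.23 and 1.56 in the same order. Of the 8 monocyte markers, 4, 4 and 2 were called higher and 0 lower, and no neutrophil marker of 7 was called. Of all probe sets 12.1%, 13.3% and 9.51% were called higher in the same order. These calls come from the fit of all arrays, whose SE is shared with array set 1. There the neutrophil marker S100a9 ran from 4.45 to 9.59. As a mean over its genes, the neutrophil list had medians of 5.59, 5.54 and 5.53 with the 3 d60 sera. With allogeneic serum of array set 2 its median was 5.28 (range 4.805 to 5.46). The mean level of the monocyte list had medians of 7.74, 7.83 and 7.66 with the 3 d60 sera against 6.79 with allogeneic serum (range 6.43 to 8.12). Allogeneic replicate 15, the array with the highest Cxcl2 among the allogeneic arrays, was also the one with the highest monocyte level. Markers of other cells moved too, and those named below are single genes of their lists. The lists held 8 T cell, 6 natural killer, 3 B cell, 5 platelet and 6 endothelial and fibroblast markers measured. The T cell marker Cd8a was higher with all 3 sera (0.88, 0.92 and 0.73 with d60 DRlyp/lyp serum, d60 DR+/+ serum and IL-1RA added). The natural killer marker Klrd1 was higher with d60 DRlyp/lyp (0.60) and d60 DR+/+ serum (0.62), and the B cell marker Cd79b with d60 DRlyp/lyp serum (1.13). Not all markers of these lists went up. With d60 DR+/+ serum the T cell marker Cd4 (-0.36) and the natural killer marker Gzmb (-0.45) were called lower, while the T cell marker Cd5 was higher (0.78). Gzmb was near background in both groups (4.90 against 5.35 with allogeneic serum), and Cd4 with d60 DR+/+ serum (5.46). The platelet marker Gp5 was lower with all 3 (-0.85, -1.19 and -0.74), and the endothelial marker Pecam1, which is also found on platelets and leukocytes, with d60 DRlyp/lyp (-1.003) and d60 DR+/+ serum (-0.91). The part of cell number or RNA per cell in the chemokine differences was not tested.

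Against autologous BN serum, which is the donor's own, no member was called in any of the d60 comparisons. The calls over all probe sets were few there too: 0.0354% with d60 DRlyp/lyp serum, 1.35% with d60 DR+/+ serum and 0.0548% with d60 DRlyp/lyp serum plus IL-1RA. Cxcl2 differed by 1.34 (95% confidence interval -0.26 to 2.93), 1.31 (-0.28 to 2.90) and 1.60 (0.0015 to 3.19) in that order, with adjusted p-values of 0.860, 0.418 and 0.528 (limma). These are differences as large as those against allogeneic serum, with only 4 autologous arrays that ranged over 6.56 to 8.68. Cxcl1 differed by 0.38, 0.38 and 0.85, and the last had an unadjusted p of 0.000778 and an adjusted p of 0.195 (limma). The 4 arrays with IL-1RA (4.94 to 5.48) lay above all 4 autologous arrays, which measured 4.20, 4.77, 4.18 and 4.25. Unadjusted p-values under 0.05 were found for 1, 1 and 3 of the 11 members, among them Il6 in all 3 comparisons. Of all 31042 probe sets, 1857, 4890 and 2936 had such a p in the same order. The 3 comparisons share the 4 autologous arrays, so the return of Il6 is not separate evidence. The fit of array set 2 alone called no member against autologous serum either, and its adjusted p for Cxcl2 was 0.778, 0.114 and 0.198. Which members had a low unadjusted p depended on the fit. In array set 2 alone it was 0.00138, 0.00169 and 0.000210 for Cxcl2 and 0.00618, 0.0308 and 0.0882 for Il6 (limma).

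Il6 was near background in all groups, and it differed from allogeneic serum with d60 DRlyp/lyp serum by a small amount. It measured 3.81, 3.46, 3.30 and 3.73 with d60 DRlyp/lyp serum, against a lowest value of 3.13, a median of 3.24 and a highest value of 3.56 with allogeneic serum. The difference of 0.30 was called (SE 0.0871, adjusted p = 0.0144, limma), although the arrays overlapped, and the call was lost without replicate 1 of d60 DRlyp/lyp (difference 0.22, adjusted p = 0.134). The fit of array set 2 alone also called it (adjusted p = 0.0415, limma), in 8 of 16 fits that left out 1 array. With d60 DR+/+ serum Il6 measured 3.48, 3.18, 3.39 and 3.91, and with IL-1RA added 3.53, 3.36, 3.43 and 3.39. Their differences from allogeneic serum, 0.22 and 0.15, were not called (adjusted p = 0.0594 and 0.189, limma). Against autologous serum, which gave 2.97, 3.40, 3.25 and 3.22, Il6 differed by 0.36 with d60 DRlyp/lyp serum (SE 0.107, unadjusted p = 0.00139, adjusted p = 0.511, limma). All 21 arrays of array set 1 were between 2.83 and 3.22.

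The 2 Tnf probe sets disagreed in direction. Tnf A measured 5.65, 5.74, 5.48 and 6.06 with d60 DRlyp/lyp serum, against a median of 5.98 with allogeneic serum (5.58 to 6.36), a difference of -0.22. Tnf B measured 6.21, 5.96, 6.40 and 6.02 with d60 DRlyp/lyp serum, against a median of 5.77 (5.09 to 6.05), a difference of 0.48. With IL-1RA added the differences were -0.20 for A and 0.42 for B, and with d60 DR+/+ serum -0.17 and 0.15. None was called in the fit of all arrays (adjusted p between 0.118 and 0.630, limma). The fit of array set 2 alone called Tnf B with d60 DRlyp/lyp serum (adjusted p = 0.0469) in the full set of arrays and in 6 of 16 fits that left out 1 array. The data therefore give no single direction for Tnf.

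Lif was near background and lower with the d60 sera than with allogeneic serum. It measured 4.03, 4.37, 3.91 and 4.36 with d60 DRlyp/lyp serum plus IL-1RA, 4.06, 4.04, 4.17 and 4.79 with d60 DRlyp/lyp serum and 4.09, 4.01, 3.93 and 4.88 with d60 DR+/+ serum, against 4.25 to 5.00 with a median of 4.62 in 12 allogeneic arrays. The groups overlapped in each comparison. The differences were -0.47 (adjusted p = 0.0183), -0.38 (0.0438) and -0.41 (0.0239) in that order (limma), and all 3 were called. In the fit of array set 2 alone, Lif was called with IL-1RA added (adjusted p = 0.0415) and with d60 DR+/+ serum (0.0474), and not with d60 DRlyp/lyp serum (0.0757, limma). That fit called Lif in 7, 2 and 6 of 16 fits that left out 1 array, in the same order as above. In the fit of all arrays the calls stood in 14, 8 and 13 of 16 such fits. They were lost without any of replicates 1 to 3 of d60 DRlyp/lyp, any of replicates 1 to 3 of d60 DR+/+, replicate 1 or 3 of the IL-1RA group and, for d60 DRlyp/lyp, allogeneic replicates 4, 6, 9, 11 or 12, with adjusted p between 0.0552 and 0.190. A further quantile normalization gave differences of -0.33, -0.25 and -0.27, which were not called.

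Csf1 was above background and, like Lif, stood lower with the d60 sera than with allogeneic serum. Csf1 A measured 9.43, 9.27, 8.70 and 9.20 with d60 DRlyp/lyp serum plus IL-1RA, 9.12, 9.34, 8.98 and 9.78 with d60 DRlyp/lyp serum and 8.96, 9.41, 8.59 and 9.49 with d60 DR+/+ serum, against 9.11 to 10.19 with a median of 9.79 for allogeneic serum. All 3 groups overlapped with the allogeneic arrays. Its difference was called with IL-1RA (-0.59, adjusted p = 0.0376, limma) and with d60 DR+/+ serum (-0.63, SE 0.204, adjusted p = 0.0206), and not with d60 DRlyp/lyp serum (-0.44, adjusted p = 0.106). The d60 DR+/+ call was lost without its replicate 3 (-0.46, adjusted p = 0.155) or 1 (0.0813). The call with IL-1RA was lost without its replicate 3 (-0.45, adjusted p = 0.213), 2 or 4, or without allogeneic replicate 4, 6, 9 or 12. Csf1 B was called with d60 DRlyp/lyp serum (-0.49, adjusted p = 0.0480), and that call was lost without replicate 1, 2 or 3 of that group or allogeneic replicate 4, 6, 9, 11 or 12. In the fit of array set 2 alone Csf1 B was not called (adjusted p = 0.0602). Csf1 A was called there with d60 DR+/+ serum (0.0250, in 14 of 16 fits that left out 1 array) and with IL-1RA (0.0476, in 5 of 16, limma). Csf1 C (-0.23 to -0.29) and D (-0.11 to -0.17) were lower in all 3 comparisons and not called.

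Genes restricted to tissues other than blood moved the same way as Lif and Csf1. Of the 43 tissue-restricted genes behind the background limit, 9 were called lower with d60 DRlyp/lyp serum, 15 with d60 DR+/+ serum and 13 with IL-1RA added, and 0 were called higher. Of all probe sets 9.38%, 12.2% and 8.56% were called lower in the same order. Their median differences from allogeneic serum were -0.20, -0.26 and -0.27. Over the 32 arrays of array set 2, the mean of these genes correlated with Csf1 B (r = 0.893), Csf1 C (0.890), Lif (0.782), Csf1 A (0.776) and Tnf A (0.747). For Cxcl1 (-0.37), Cxcl2 (-0.41) and Tnf B (-0.22) the correlation was below 0. In array set 1 (21 arrays) it was 0.884 for Nos2, 0.881 for Csf1 C and 0.792 for Csf1 A. There it was above 0 for Cxcl1 (0.522), Cxcl2 (0.415) and Tnf B (0.578), opposite in sign to array set 2. These arrays share a normalisation, and the part of this shared movement in the differences of Lif and Csf1 was not tested.

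Nos2 differed little between sera. It measured 7.79, 7.68, 7.33 and 7.83 with d60 DRlyp/lyp serum plus IL-1RA, 7.62, 7.47, 7.52 and 7.89 with d60 DRlyp/lyp serum and 7.41, 7.49, 7.56 and 7.84 with d60 DR+/+ serum, against 7.68 to 8.37 with a median of 7.75 for allogeneic serum. The differences were -0.22, -0.25 and -0.30 in that order, and none was called (adjusted p = 0.285, 0.220 and 0.133, limma). Within array set 2 the order of group means ran between 7.58 and 7.88, and each group overlapped its neighbour. The 6 group means of array set 2 all lay above the 4 of array set 1, which ran between 6.89 and 7.20.

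Adding IL-1B to autologous serum addresses the induction of IL-1 driven expression, and no member was called in that comparison. Of all 31042 probe sets, 0 (0%) were called by limma, and 1121 had an unadjusted p under 0.05, as did 0 of the 11 members. Cxcl2 measured 7.97, 7.93, 7.24 and 7.32 with IL-1B, against 8.68, 7.65, 6.87 and 6.56 with autologous serum alone. The difference was 0.18 with a 95% confidence interval of -1.42 to 1.77. Cxcl1 measured 4.15, 4.18, 4.75 and 5.04, with replicates 3 and 4 higher than replicates 1 and 2, a difference of 0.18 (-0.30 to 0.65). Il6 differed by 0.08 (-0.13 to 0.30) and Nos2 by -0.05 (-0.43 to 0.33). The median member difference was -0.05, against -0.03 over all probe sets.

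IL-1RA added to d60 DRlyp/lyp serum addresses the block of IL-1 driven expression, and no member was called lower or higher with it. Of all probe sets 0 (0%) were called by limma, and 956 had an unadjusted p under 0.05, as did 0 of the 11 members. Both chemokines were higher with IL-1RA in 4 of 4 differences between arrays of the same replicate number. The share of all probe sets with a shared direction in all 4 is not given here. Same-numbered arrays did not meet the pairing rule of every r over 0.1 in this comparison (lowest r 0.0706). For Cxcl1 the mean was 0.47 (95% confidence interval -0.0067 to 0.94, unadjusted p = 0.0532, adjusted p = 1.00, limma), and for Cxcl2 it was 0.26 (-1.34 to 1.85). The Cxcl2 arrays with IL-1RA (8.90 to 9.21) did not overlap those without (8.55 to 8.89), and the share of all probe sets that did so is not given here. Il6 differed by -0.14 (-0.36 to 0.07) and Nos2 by 0.03 (-0.35 to 0.41). In the fit of array set 2 alone Cxcl1 had an unadjusted p of 0.0179 (limma), and 0 of all probe sets were called there.

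The sera of d60 DRlyp/lyp and d60 DR+/+ rats, which share their age, address the diabetes-prone genotype. No member was called, and of all probe sets 0 (0%) were called by limma, with 1864 at an unadjusted p under 0.05 and 0 of the 11 members among them. Cxcl2 differed by 0.03 (95% confidence interval -1.57 to 1.62) and Cxcl1 by -0.0063 (-0.48 to 0.47). Tnf B was higher with d60 DRlyp/lyp serum in 4 of 4 same-number pairs, by 0.32 on average (-0.24 to 0.89, adjusted p = 0.960, limma). How many of all probe sets had a shared direction in all 4 pairs is not given here. Tnf A differed by -0.04 (-0.32 to 0.23).

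Allogeneic and autologous BN serum differ in whether the serum donor was the cell donor. No member was called in array set 2, where 0.00966% of all probe sets were called, or in array set 1, where 1.07% were. Cxcl2 differed by 0.09 in array set 2 (95% confidence interval -1.21 to 1.39) and by 0.17 in array set 1 (-1.43 to 1.76), where it measured 10.54, 5.73 and 5.39 with allogeneic serum. Csf1 A, the member with the smallest adjusted p in both, differed by 0.35 in array set 2 (adjusted p = 0.372) and by 0.45 in array set 1 (adjusted p = 0.533, limma). The test of whether the difference itself changed between array sets called no member and 0.696% of all probe sets.

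Serum from d40 DRlyp/lyp rats treated with IL-1RA gave higher Cxcl2 than serum from PBS-treated rats in every replicate pair. Cxcl2 measured 10.11, 5.52, 7.57, 7.02, 6.52 and 6.81 with IL-1RA serum, against 9.16, 4.80, 7.42, 6.47, 5.91 and 6.12 with PBS serum, in order of replicate number. The spread between replicates was far larger than the difference within a pair, and the groups overlapped almost wholly. The 6 paired differences averaged 0.61 (SD 0.265) and ran between 0.15 and 0.95. The exact sign-flip test over the 6 pairs gave p = 0.03125 two-sided, the smallest it can give, and it was run after the pattern had been seen. In the fit across all probe sets the difference was not called, either without pairs (SE 0.648, adjusted p = 1.00, limma) or with the replicate number as a block (adjusted p = 0.133). The PBS and IL-1RA replicates of 1 number deviated together across probe sets (lowest r = 0.401).

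Csf1 A went the other way, lower with IL-1RA serum in 6 of 6 pairs, by -0.27 on average (SD 0.239, exact sign-flip p = 0.03125, block adjusted p = 0.367, limma). The 11 members and 8 marker lists were looked at in the same way, so 19 such tests were made, and over them a p of 0.03125 became 0.119 after Benjamini-Hochberg adjustment. The B cell (-0.27), natural killer (-0.17) and T cell (-0.18) lists were also lower in 6 of 6 pairs. The monocyte list (-0.04) and the neutrophil list (0.00071) were not. A shared direction in every pair was thus not particular to the members, and its share over all probe sets is not given here. Over all probe sets 0.00322% were called in d40 IL-1RA minus d40 PBS, and no member.

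No member was called between the d40 sera and autologous serum of array set 1. For d40 PBS minus autologous serum 0% of probe sets were called, with 1100 at an unadjusted p under 0.05, and for d40 IL-1RA minus autologous serum 0% with 213 (limma), none of them a member in either. Cxcl2 differed by 0.21 with d40 IL-1RA serum (95% confidence interval -1.09 to 1.51) and by -0.40 with d40 PBS serum (-1.71 to 0.90). Cxcl1 differed by 0.08 and -0.07, and Nos2, with medians of 6.96 and 6.97, stood beside 6.67 with autologous serum.

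In array set 1 the replicate number went with more of the variation than the serum did. Over the 18 arrays of the 3 groups with replicates 1 to 6, the replicate number held 93.0% of the sum of squares of Cxcl2 and the serum group 3.03%. For Csf1 C the replicate number held 84.2%, for Csf1 A 79.4%, for Nos2 74.8%, for Cxcl1 67.1%, for Il6 51.3% and for Tnf A 37.4%. For Tnf A 53.4% was left to neither. By chance alone 6 replicate numbers hold a larger share than 3 serum groups, so the 2 shares are not on a like footing. The shares over all probe sets are not given here. Replicate 1 had the highest Cxcl2 in all 4 groups of array set 1, with 10.11, 9.16, 10.54 and 9.92 in d40 IL-1RA, d40 PBS, allogeneic and autologous serum. Replicate 2 measured 5.52, 4.80, 5.73 and 5.47 in the same order. The labels do not say what a replicate number stands for.

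**Figure D3:**
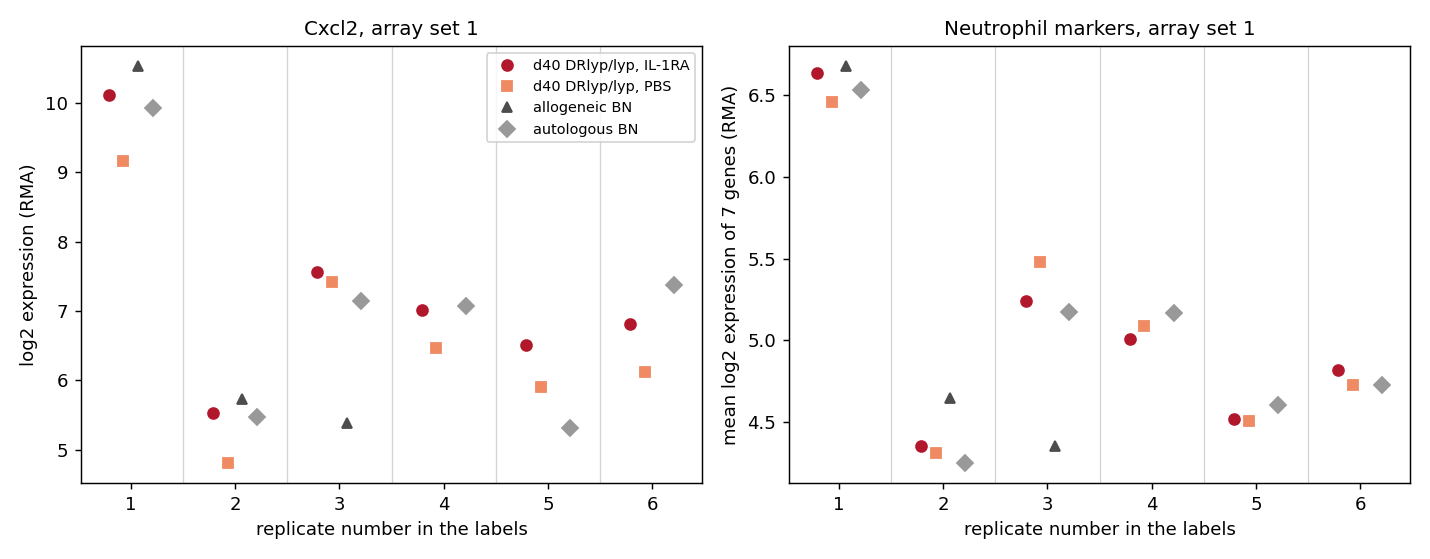
Log2 expression of Cxcl2 (left) and mean log2 expression of the 7 neutrophil markers (right) by replicate number in the 4 groups of array set 1, 1 point an array. In Cxcl2, replicate 1 lies between 9.16 and 10.54 and replicate 2 between 4.80 and 5.73 in every group, d40 IL-1RA lies above d40 PBS at all 6 numbers, and the neutrophil markers are also highest at replicate 1.

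Myeloid markers followed the same replicates. The neutrophil list averaged 6.46 to 6.68 in the replicate 1 arrays of array set 1, against 4.25 to 5.48 in the others. In those 4 arrays its defining granule genes Mmp8 (3.29 to 3.55) and Camp (4.74 to 5.01) were near background, while S100a8 (7.45 to 7.93) and S100a9 (9.12 to 9.59), which monocytes also express, were not. Camp was nevertheless highest at replicate 1 in 4 of 4 groups (4.07 to 4.69 in the other 17 arrays), and Mmp8 in 1 of 4. Il1b, the IL-1 beta gene itself, measured 11.49 to 11.69 in the replicate 1 arrays. Over the 21 arrays Cxcl2 correlated with the neutrophil list (r = 0.964), the monocyte list (0.866) and the T cell list (-0.71), and over the 32 arrays of array set 2 with the monocyte list (0.757), the neutrophil list (0.591) and the T cell list (0.160). The T cell relation of array set 1 was thus not found in array set 2. Whether arrays share cell donors is not in the labels. The part of cell composition in them was not tested.

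The levels of Cxcl1 and Cxcl2 went together over arrays. In array set 1 the correlation was r = 0.869 (Spearman 0.744, 21 arrays), and it was 0.871 with group means subtracted and 0.786 without the 2 arrays farthest from the median Cxcl2. In array set 2 it was 0.611 (Spearman 0.578, 32 arrays) and 0.539 without the 2 farthest arrays, but 0.103 with group means subtracted. The relation in array set 2 therefore rests on differences between groups, while the one in array set 1 was found within groups.

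**Figure D4:**
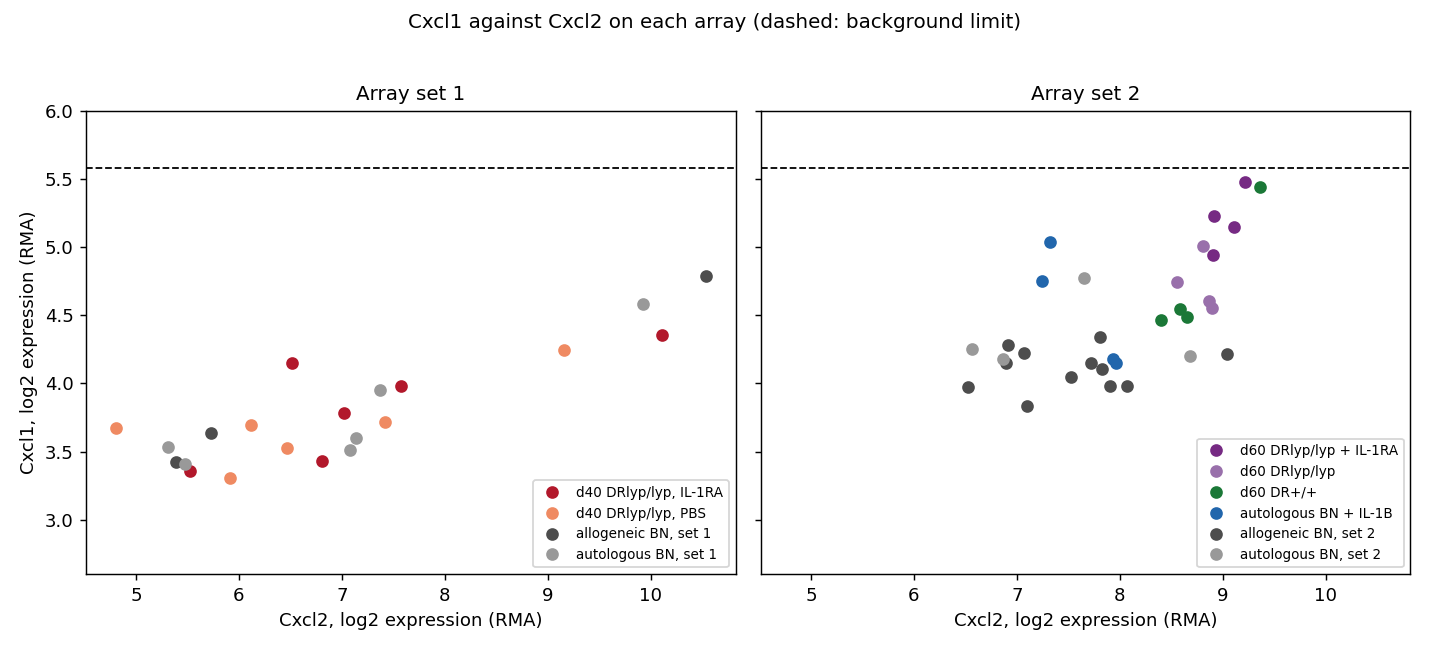
Log2 expression of Cxcl1 against Cxcl2, 1 point an array, with array set 1 left and array set 2 right, groups by colour and the background limit as a dashed line. In array set 1 the 4 replicate 1 arrays form the right end, and in array set 2 the 12 d60 arrays lie above the 12 allogeneic arrays in Cxcl1.

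The genes whose pattern was most like each member were found by correlation over the 53 arrays with the mean of each array set subtracted, among 8790 named genes above the background limit. For Cxcl2 they were the immunoglobulin receptor gene Fcgr1a (r = 0.917), Il1b (0.905) and Slpi, a secreted protease inhibitor (0.904). For Cxcl1 they were Igsf6 (0.757), Pilra (0.744) and again Fcgr1a (0.742). Those of Csf1 were Lce3b (0.862), Syt15 (0.844) and Zfp575 (0.837), those of Lif Tmc4 (0.833), Cand2 (0.822) and Apln (0.820), and those of Nos2 Hrh3 (0.846), Ints1 (0.833) and Ltbp3 (0.826). For Tnf they were Cckbr (0.722), Cacng2 (0.712) and Pde5a (0.706). Il6 had the weakest likeness, with Ppp2r3a (0.645) first. The ranking depended on the arrays used, since over the 32 arrays of array set 2 alone another gene came first for each member. These were Akr1b8 for Cxcl2 (r = 0.878), Abca1 for Cxcl1 (0.793), Tmc4 for Csf1 (0.902) and Map1a for Lif (0.877). For Nos2, Tnf and Il6 they were Hemgn (0.841), Cacng2 (0.836) and Kynu (0.743). Hrh3, Ints1 and Ltbp3 had r of 0.698, 0.682 and 0.721 with Nos2 there. Fcgr1a, Il1b and Slpi are known to be expressed by myeloid cells.

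Autologous serum itself differed between the array sets, with the same label in both. Of all probe sets 55% were called, and the median of all was -0.16, to which the member values below are to be set. Of the members 7 were called lower and 0 higher, with a median of -0.55. Lif was lower by -0.94 (adjusted p = 4.3e-06, limma), Csf1 A by -1.10, Csf1 B by -0.90, Nos2 by -0.87, Cxcl1 by -0.59, Csf1 C by -0.55 and Csf1 D by -0.33. Cxcl1 (-0.35) and Csf1 D (-0.07) were not called after a further quantile normalization, nor (-0.45 and -0.19) with each array centred on its median, and the other 5 were called under both. Cxcl1 also lost its call without autologous replicate 8 (adjusted p = 0.107) and Csf1 D without autologous replicate 2, 4, 6, 7 or 10. Cxcl2 differed by -0.39 and was not called (adjusted p = 0.659). Beside these differences, the log2 excess of the 3′ over the 5′ actin probe set, a sign of RNA degradation, had medians of 3.51 to 4.00 in the d40 groups and autologous serum of array set 1 and of 2.81 in allogeneic serum there, against 2.35 to 2.70 in the groups of array set 2. Its part in the differences was not tested.

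Other genes of the pathway were followed through 5 lists. The counts stand beside 12.1%, 13.3% and 9.51% of all probe sets called higher with d60 DRlyp/lyp serum, d60 DR+/+ serum and IL-1RA added, and 9.38%, 12.2% and 8.56% called lower. In signalling and targets of IL-1 and NF-kappaB, 13 of 28 measured genes were called higher and 1 lower with d60 DRlyp/lyp serum than with allogeneic serum, 14 and 1 with d60 DR+/+ serum, and 15 and 1 with IL-1RA added. The list medians were 0.43, 0.62 and 0.55, beside -0.05, -0.05 and -0.04 over all probe sets. Nfkbia, the inhibitor that NF-kappaB induces against itself, was higher by 1.51, 0.95 and 1.11 in the same order (adjusted p = 0.00387, 0.0403 and 0.0259, limma). Nfkb2, which encodes an NF-kappaB subunit, was higher by 1.19, 1.16 and 1.55. Among those with the largest differences, Irak2, a kinase of IL-1 receptor signalling, was higher by 0.87 with d60 DRlyp/lyp serum and by 0.98 with d60 DR+/+ serum. Tnip1, a brake on NF-kappaB, was higher by 1.03 with d60 DR+/+ serum and by 1.09 with IL-1RA added. Nfkbia and Nfkb2 were called with all 3 sera, the one with IL-1RA included.

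Of 11 other CXC chemokines, 1 was called higher in each comparison, which is near the share of all probe sets, and it was Cxcl16, a ligand made by macrophages (0.69, 0.80 and 0.60 with d60 DRlyp/lyp serum, d60 DR+/+ serum and IL-1RA added). The counts called lower were 2, 0 and 1, with Cxcl13, a B cell attractant near background, at -0.37 and -0.39 in the first and the third. Of 21 other cytokines and growth factors, 2, 3 and 0 were called higher and 0, 3 and 0 lower. Il18 (0.75) and Vegfa (0.67) were higher with d60 DRlyp/lyp serum, and Clcf1 (1.01), a relative of Il6 and Lif, Vegfa (0.61) and Il1a (0.57) with d60 DR+/+ serum. Clcf1 (5.07 against 4.05 with allogeneic serum) and Il1a (5.56 against 4.99) were near background in both groups. Il1b was called with none of the sera in this fit of all arrays. Its d60 arrays (9.05 to 10.00) nevertheless lay above all allogeneic arrays of array set 2 (7.69 to 8.88). They overlapped the autologous arrays of that set (7.77 to 9.61). How many of all probe sets lay apart from allogeneic serum in this way is not given here. In array set 1, which shares the SE of the fit, Il1b ran from 7.14 to 11.69.

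Of 13 receptors, 3, 5 and 2 were called higher and 3, 3 and 2 lower, with list medians of 0.18, -0.05 and 0.14. Tnfrsf1b, a receptor for Tnf, was higher with all 3 sera, by 0.89, 0.69 and 0.88. Its mean with allogeneic serum was near background (5.21). Csf1r, the receptor for Csf1 and itself on the monocyte list, was higher by 0.72 with d60 DRlyp/lyp serum and by 0.84 with d60 DR+/+ serum. Cxcr1, a chemokine receptor of neutrophils, was lower by -0.62 with d60 DRlyp/lyp serum and by -0.48 with IL-1RA added. Its means with these sera were near background (5.27 and 5.41). Of 12 genes of nitric oxide and arginine metabolism, 3, 2 and 3 were called higher and 1 each lower, with list medians of 0.25, 0.05 and 0.33. Irf1, an activator of Nos2, was higher by 1.49, 1.17 and 1.35. Asl, which makes arginine, was higher by 0.68 with d60 DRlyp/lyp serum and by 0.66 with IL-1RA added, and the arginine transporter Slc7a1 by 1.04 with d60 DR+/+ serum.

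Against autologous serum 1 gene of these lists was called among the receptors and 1 in arginine metabolism, both with d60 DR+/+ serum. They were Csf2ra, a receptor subunit for Csf2 (0.99, adjusted p = 0.00443, limma), and Slc7a1 (1.16, adjusted p = 0.0237). Beside them Cd14 (1.70) and Mpeg1 (2.23) were called higher. In the other comparisons within an array set 1 further gene of the 5 lists was called, the mRNA-destabilising factor Zfp36, which was lower with allogeneic than with autologous serum in array set 1 (-0.81, adjusted p = 0.0480).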

How the data were processed

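Per the labels, total RNA of 53 cultures was hybridised to Affymetrix rat arrays, 1 array a culture. The deposited table holds log2 expression values per probe set, and the submitters' processing notes name RMA and Partek 6.2. Their settings and the scan dates are not stated in those sources. As a method, RMA subtracts background, makes arrays comparable and compresses weak signals. The precision is limited by the number of arrays.

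Of 31099 probe sets 57 controls were left out. Array sets were found by hierarchical clustering (Ward) of the values. A model of 10 group means, with autologous and allogeneic serum split by array set, was fitted to all 53 arrays with limma 3.58.1 (R 4.3.3, eBayes with a trend). Benjamini-Hochberg adjustment ran over the 31042 probe sets of each comparison, and calls were made at an adjusted p under 0.05. SEs are limma's moderated ones, and confidence intervals (95%) use its t distribution. The fit was tested on simulated data. Plots used matplotlib 3.10.9 under Python 3.11.15.

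All probe sets of the 7 genes are named. The probe set with the highest mean stands for its gene in correlations and lists, the 3 most correlated genes are named as most alike, and up to 4 called genes of a pathway list with the largest differences are named. The members and lists were chosen with earlier results of these data known, so none is independent evidence. Replicate numbers paired the arrays, by correlated deviations of same-numbered arrays (every r over 0.1), in d60 DRlyp/lyp minus d60 DR+/+ (lowest r 0.175), d40 IL-1RA minus d40 PBS (0.401) and d40 IL-1RA minus autologous (0.129). Allogeneic serum was planned as another reference for the d60 sera; giving it as a comparison of its own, with its own settings, and the fit of 1 array set alone were added after the data were seen. Other settings tried were normalisation, centring, a background filter, array weights, an actin covariate, pooled label groups, 2-group fits and leaving out each array.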

Additional observations from a re-analysis of the deposited data

Results flagged for a closer look

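The spread within groups of 4 to 10 arrays was checked for a value far from the others, in 88 groups of values over the 11 member probe sets, and 5 values were found. Chance gives about 5% of groups. In d60 DR+/+ serum, replicate 4 had the highest Cxcl1 (5.44, the others 4.47 to 4.55) and the highest Lif (4.88, the others 3.93 to 4.09), and the same array had the lowest actin 3′ over 5′ excess of its group (1.13). In autologous serum of array set 2, replicate 8 had the highest Cxcl1 (4.77, the others 4.18 to 4.25). In autologous serum of array set 1, replicate 6 had the lowest Il6 (2.83, the others 3.05 to 3.14). In d40 IL-1RA serum, replicate 1 had the highest Csf1 B (7.32, the others 6.57 to 6.84). Differences of the allogeneic effect between array sets were tested for all 11 member probe sets, and none was called (limma, smallest adjusted p = 0.623, Cxcl1).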

How the results depend on the processing

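No called member changed direction in any setting run. In comparisons with autologous serum, pooling the label groups over array sets gave 1 member called in d60 DRlyp/lyp (Il6), 1 in d60 DRlyp/lyp plus IL-1RA (Cxcl1) and 5 in allogeneic minus autologous serum, where 0 had been called. Array weights called 1 member in allogeneic minus autologous serum of array set 1, and taking allogeneic serum in place of autologous gave 4, 3 and 3 members in d60 DRlyp/lyp, d60 DR+/+ and d60 DRlyp/lyp plus IL-1RA. Among probe sets above the background limit, autologous serum of array set 1 minus array set 2 had 4 members called, since Lif, Cxcl1 and Csf1 D were no longer tested. Against allogeneic serum, in the order d60 DRlyp/lyp, d60 DR+/+ and d60 DRlyp/lyp plus IL-1RA, the filter at the background limit left 1, 1 and 1, an adjusted p under 0.01 left 0, 0 and 1, and pooled label groups left 1, 0 and 1. Further quantile normalization gave 5 members in d60 DR+/+ and 5 in d60 DRlyp/lyp plus IL-1RA, centring on array medians 2 in d60 DRlyp/lyp, and array weights 6 in d60 DR+/+. Except for the filter and the stricter threshold, which test fewer or demand more, the cause was not tested. Leaving out each array in turn gave ranges of 0 to 6, 1 to 4 and 1 to 4 members called, and 6 to 7 between the array sets. Counts over all probe sets moved more. With pooled label groups, calls against allogeneic serum were 701, 227 and 57, where 6683, 7924 and 5610 had been called, and with array weights 8924, 13153 and 8102. In array set 2 alone the last count was 3328. Against autologous serum of array set 2 the 11, 418 and 17 calls ran between 2 and 51, 0 and 1955, and 11 and 56 over the settings that kept all arrays of the 2 groups. Allogeneic minus autologous serum had 12614 calls with pooled label groups, where 332 (array set 1) and 3 (array set 2) had been called, and 0 in both with the array set as a block. With array weights d40 PBS minus autologous serum had 153 calls, d40 IL-1RA minus autologous serum 7 and d60 DRlyp/lyp minus d60 DR+/+ 60, where 0 had been called, and the test of the allogeneic difference between array sets 1323, where 216 had been. With the filter, autologous serum of array set 1 minus array set 2 had 7736 calls, where 17058 had been. With the replicate number as a block no member was called in any of the 7 comparisons that share numbers, paired or not, so no member call changed. Cxcl1 in d60 DRlyp/lyp plus IL-1RA minus d60 DRlyp/lyp had an adjusted p of 0.261 with the block (difference 0.47), and Cxcl2 in d40 IL-1RA minus d40 PBS 0.133. No paired analysis was possible because the labels give no number in common to the arrays of IL-1B or d60 sera (1 to 4) and of autologous serum in array set 2 (7 to 10). The T cell marker Cd3e was highest at replicate 3 in the 4 groups numbered 1 to 4 (10.51 to 10.55) and at autologous replicate 9 (10.47). Whether these arrays share a source under other numbers was not tested. Signal near background limits Il6, Lif, Cxcl1 and Csf1 D.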
